A study of Mus musculus with 32 samples.

Results

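Rab9, Tbc1d25, Atp6ap1, Atp6ap2 and Lamp2 are 5 X-linked genes of vesicle traffic and the lysosome. They were chosen by name, and all 5 were listed in each of the 3 deposited tables, among 902 X-linked genes of 26440 in the nascent RNA table and 514 of 13888 and 541 of 15012 in the mRNA tables. In differentiating cells the B6 share of Rab9, Tbc1d25, Atp6ap2 and Lamp2 mRNA fell after Xist was induced on the B6 chromosome, Lamp2 being tested below the planned minimum level. At 48 h 93.7% of X-linked genes and 12.4% of all genes passed as lower in the share. The Cast allele of some of the 5 genes moved as well. In undifferentiated cells only the Lamp2 mRNA share passed the threshold at 24 h, where 28.6% of X-linked genes and 0.852% of all genes passed as lower. That call was by a small margin and was lost in most fits that left out a library and with a replicate term. No nascent RNA share passed, where 30.1% of X-linked genes and 0.806% of all genes did.

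Lysosomes are acidic organelles that digest material delivered by endocytosis and autophagy. The vacuolar proton pump (V-ATPase) acidifies them, and enzymes reach them from the Golgi on mannose 6-phosphate receptors that must be sent back for reuse. Rab9 is a small GTPase of late endosomes that acts in that return route, and Tbc1d25 is a GTPase-activating protein for Rab33b that acts on autophagosomes. Atp6ap1 and Atp6ap2 are accessory proteins of the V-ATPase, Atp6ap2 being also known as the prorenin receptor. Lamp2 is a heavily glycosylated protein of the lysosomal membrane that is needed for autophagy, and its loss causes Danon disease in humans. Xist is the non-coding RNA that coats an X chromosome and silences its genes, so an X-linked gene of a hybrid cell can be followed by how much of its RNA still comes from the coated chromosome.

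Every library came from one female embryonic stem cell line, TX1072, a hybrid of the mouse strains C57BL/6 (B6) and CAST/EiJ (Cast). In all groups, controls included, the cells carried an rtTA transgene at Rosa26 and a doxycycline-responsive promoter at the Xist gene of the B6 chromosome, and the line was kept in serum medium with LIF and inhibitors of Gsk3 and MEK. Doxycycline at 1 µg/ml was given for 0 or 24 h (2 PRO-seq libraries each, A and B) or for 0.5, 1, 2, 4, 8 or 12 h (1 PRO-seq library each). For mRNA-seq, undifferentiated cells were taken at 0, 2, 4, 8, 12 and 24 h and differentiating cells at 0, 8, 16, 24 and 48 h, with 2 libraries at each time. The labels do not describe how differentiation was started. No differentiating library without doxycycline was analysed here, so in that course the hours of Xist and the hours of differentiation cannot be told apart. PRO-seq is a run-on assay of RNA polymerase at work and so reads nascent RNA. The B6 share is the percentage of a gene's allele-assigned reads that carry the B6 allele, and RPKM is a read density scaled to gene length and library size. The labels do not say that replicates were separate cultures, so p-values measure only the spread between these libraries, which may be technical.

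The cells carried the markers of their label. All 6 naive pluripotency markers were above 1 RPKM at every time, and their summed level was 817 to 1157 RPKM over the undifferentiated libraries. In the differentiating course it was 1216 and 1217 RPKM at 0 h and 227 and 235 RPKM at 48 h, and all 6 genes fell. The 4 formative markers summed to 57.4 and 59.3 RPKM at 0 h and to 384 and 393 RPKM at 48 h. Of 6 fibroblast or feeder markers 3 were listed, and they summed to 6.58 to 14.3 RPKM in undifferentiated and 7.72 to 40.2 RPKM in differentiating libraries, most of it Thy1 (up to 39.3 RPKM), with Col1a2 at 0.495 RPKM or less. Of 6 primitive endoderm markers 3 (undifferentiated) and 4 (differentiating) were listed, summing to at most 2.67 RPKM. Between 3041199 and 6443286 reads per PRO-seq library could be assigned to an allele. The mRNA depth is known only in relative terms. It was read from the commonest RPKM ratio to the first library of the course, among genes under 0.5 RPKM in that first library. That ratio was shared by 29 to 159 genes per library. Depth so read was 0.866 to 1.32 times that of the first undifferentiated library and 0.569 to 1.27 times that of the first differentiating one. PRO-seq intervals are 95% Wilson intervals and cover counting error only.

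One library stood apart. In undifferentiated cells at 2 h, replicate 1, the levels of 91 of 309 X-linked genes whose mean RPKM reached 1 were over 4-fold above the mean of the other 11 libraries (log2(RPKM + 0.5) scale), against 13 of 10073 autosomal genes. In those 11 libraries this number was 0 or 1. Atp6ap1 was at 40.8 RPKM there and at 0.255 to 0.702 RPKM in the other undifferentiated libraries. Rab9 was at 65.0 RPKM there against 11.9 to 17.01 RPKM, and Tbc1d25 at 26.4 RPKM against 5.49 to 9.59 RPKM. Atp6ap2, at 21.4 RPKM, and Lamp2, at 2.40 RPKM, lay within the range of the others. The B6 shares of the 5 genes in that library were 39.7% to 58.6%. The same library held 364 of 10382 genes over 4-fold below that mean, where the others held 0 or 1. The cause was not tested, and tests of the undifferentiated mRNA course are given with and without it.

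The genes lie far apart on the X chromosome (mm10 build). Tbc1d25 lies at chrX:8154472-8176181 on the minus strand, Atp6ap2 at chrX:12587801-12617049 on the plus strand and Lamp2 at chrX:38401357-38456454 on the minus strand. Atp6ap1 lies at chrX:74297097-74304721 on the plus strand and Rab9 at chrX:166457253-166479867 on the minus strand. Their starts are 29.2 (Atp6ap1) to 95.3 megabases (Tbc1d25) from that of Xist. In GENCODE vM21 no other gene overlaps any of them on either strand.

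Levels per length ranked the genes differently in mRNA and in nascent RNA. Before doxycycline the mRNA of undifferentiated cells was at 20.8 and 23.6 RPKM for Atp6ap2, at 17.01 and 14.0 RPKM for Rab9, at 8.08 and 6.92 RPKM for Tbc1d25, at 1.66 and 2.04 RPKM for Lamp2, and at 0.460 and 0.658 RPKM for Atp6ap1. No 2 neighbours in this order overlapped, and the same order held at 0 h of the differentiating course. In nascent RNA the median over the 10 libraries was 19.9 RPKM for Lamp2, 16.5 RPKM for Atp6ap1, 14.9 RPKM for Rab9 and for Tbc1d25, and 11.8 RPKM for Atp6ap2. Over these 10 libraries, those with doxycycline included, the ranges of all 5 genes overlapped, from 10.1 RPKM (Rab9, lowest) to 26.7 RPKM (Lamp2, highest). At 0 h alone nascent Lamp2, at 26.7 and 20.4 RPKM, lay above the rest. Atp6ap1, at 16.4 and 18.6 RPKM, lay above Rab9 (11.8 and 14.7 RPKM) and Atp6ap2 (11.9 and 11.2 RPKM). It overlapped Tbc1d25 (11.9 and 16.6 RPKM). RPKM of the 2 assays are not on a common scale. Within the mRNA of 21 libraries, without the one that stood apart, Atp6ap1 was at 0.180 to 0.702 RPKM, so its mRNA shares rest on few reads.

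Nascent RNA in undifferentiated cells came first. The question was how soon transcription of each gene on the Xist-coated chromosome declined. The B6 share of Rab9, the endosomal GTPase, was 41.8% (interval 37.1% to 46.6%) and 46.3% (42.4% to 50.3%) at 0 h. It was 46.7%, 45.8%, 42.9%, 39.4%, 34.9% and 33.8% in the single libraries at 0.5, 1, 2, 4, 8 and 12 h, and 31.6% (26.4% to 37.4%) and 37.7% (33.8% to 41.7%) at 24 h. Every library from 4 h on lay below both libraries of 0 h. Lamp2, of the lysosomal membrane, had shares of 39.5% (33.1% to 46.3%) and 47.9% (42.8% to 53.1%) at 0 h, 32.2% at 8 h, 26.8% at 12 h, and 37.1% (29.1% to 45.9%) and 30.1% (24.9% to 35.8%) at 24 h. Between them lay 41.8%, 35.2%, 41.4% and 41.6% at 0.5, 1, 2 and 4 h. Its libraries at 8, 12 and 24 h also lay below both at 0 h, but so did the single library at 1 h.

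The other 3 genes moved less or were measured less well. Tbc1d25 stood at 42.0% and 41.7% at 0 h and at 41.6% and 37.4% at 24 h, with single libraries between 37.6% and 52.9%, the highest at 1 h (47.0% to 58.6%). Atp6ap2 stood at 46.1% and 43.1% at 0 h and at 41.4% and 40.8% at 24 h, with single libraries between 39.3% and 49.3%. For Atp6ap1 only 16 to 40 reads per library could be assigned, and its share was 65.2% (44.9% to 81.2%) and 57.5% (42.2% to 71.5%) at 0 h against 61.1% (38.6% to 79.7%) and 36.1% (22.5% to 52.4%) at 24 h, with single libraries between 51.6% and 72.2%. The Atp6ap1 groups overlapped, and a change of the size seen for Rab9 was not detectable at this depth.

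None of the 5 passed the test of the nascent share at 24 h (edgeR quasi-likelihood test, Benjamini-Hochberg adjustment over all genes), where 30.1% of the 349 X-linked genes and 0.806% of the 13392 genes tested passed as lower. The change in log2 odds of the B6 share was -0.55 ± 0.22 (SE) for Rab9 (edgeR adjusted p = 0.523) and -0.69 ± 0.29 for Lamp2 (edgeR adjusted p = 0.617). It was -0.16 ± 0.23 for Tbc1d25, -0.20 ± 0.20 for Atp6ap2 and -0.86 ± 0.74 for Atp6ap1, which came to 0.02 without 24 h library B. The median over X-linked genes was -1.15, and counted from the largest fall, Tbc1d25 ranked 334 and Atp6ap2 329 of 349. The normal 95% interval of Tbc1d25, -0.61 to 0.30, and that of Atp6ap2, -0.59 to 0.20, did not reach that median. That of Rab9 did not reach it either, while those of Lamp2 and Atp6ap1 did. Total nascent reads of the 5 did not pass either, and 1 gene of 16870 passed in each direction (0.00593%).

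**Figure D1:**
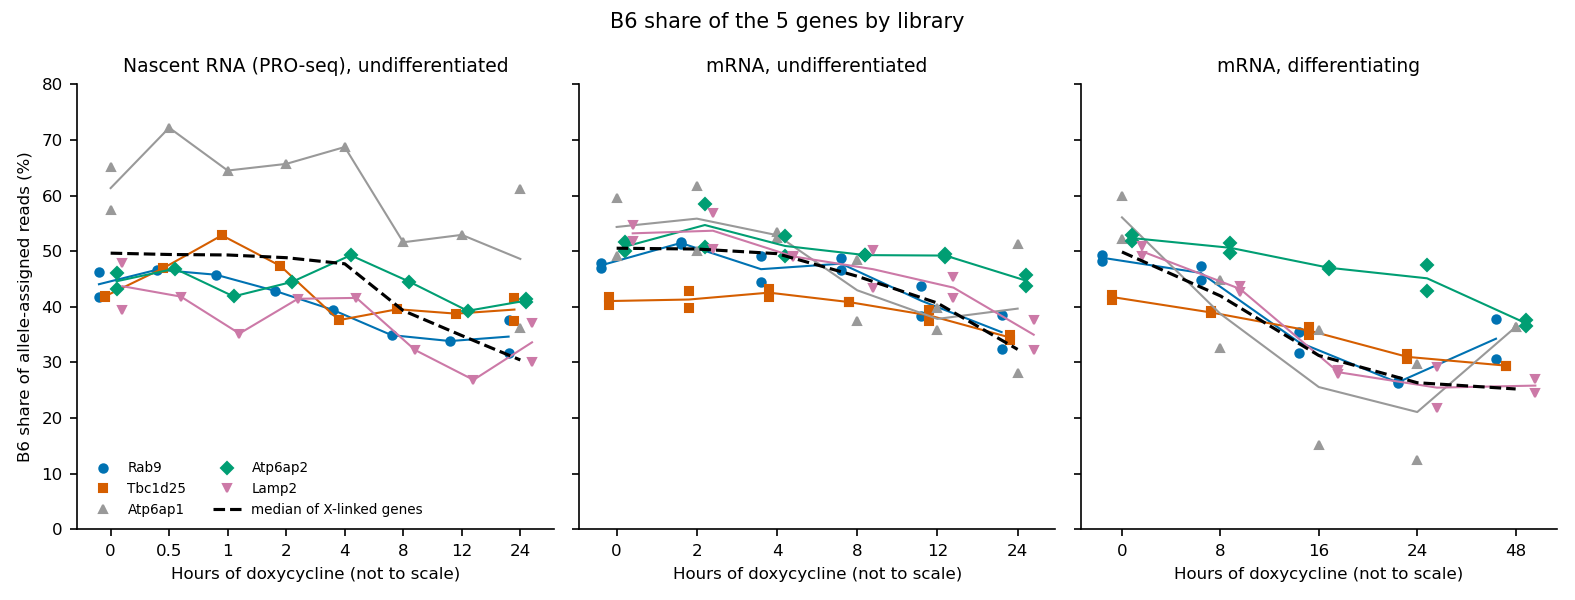
B6 share (percent of allele-assigned reads, y axis) by hours of doxycycline (x axis, not to scale) in the 3 courses. Points are libraries, coloured lines join the means of the 5 genes, and the dashed line is the median X-linked gene, which ended at 30.4% and 30.5% in PRO-seq, at 27.8% and 36.9% in undifferentiated mRNA and at 25.7% and 24.8% in differentiating mRNA; the means of all 5 genes ended above it in all 3 courses.

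Neighbours on the chromosome were set beside the genes. Trappc2 and Tceanc are the nearest measured genes on either side of Rab9, and their nascent share changed by -1.35 ± 0.34 and -1.03 ± 0.28 (log2 odds, SE; edgeR adjusted p = 0.0517 and 0.0892). Next to Tbc1d25, the share of Rbm3 fell by 0.77 (edgeR adjusted p = 0.00204), while Ebp, on the other side, changed by -1.13 ± 0.47 without passing. Near Atp6ap1, Taz changed by -0.97 ± 0.53. Beside Atp6ap2, Bcor changed by -0.92 ± 0.26 and 1810030O07Rik by -0.25 ± 0.29. The nearest measured neighbours of Lamp2, Rhox5 (-0.74 ± 0.83) and Xiap (-1.21 ± 0.39), lie 592 and 3603 kilobases away.

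In mRNA of undifferentiated cells only one share passed the threshold at 24 h. Rab9 stood at 47.8% and 47.0% at 0 h, 51.7% and 51.3% at 2 h, 49.1% and 44.4% at 4 h, 46.7% and 48.8% at 8 h, 38.3% and 43.8% at 12 h and 32.4% and 38.5% at 24 h. Lamp2 stood at 54.6% and 51.8% at 0 h, 56.9% and 50.4% at 2 h, 49.1% and 49.0% at 4 h, 43.4% and 50.2% at 8 h, 41.6% and 45.3% at 12 h and 32.3% and 37.7% at 24 h. For both genes the libraries of 12 h and of 24 h lay below those of 0 h, and for Lamp2 so did those of 4 and 8 h. Tbc1d25 began lower, at 41.8% and 40.3%, lay between 37.4% and 43.3% from 2 to 12 h, and ended at 34.99% and 34.0%. Atp6ap2 was at 51.6% and 50.0% at 0 h, between 49.0% and 58.6% from 2 to 12 h (52.7% at most without 2 h replicate 1), and at 43.8% and 45.7% at 24 h. For both genes the libraries of 24 h lay below all earlier ones. Atp6ap1, with its low mRNA, had 49.2% and 59.6% at 0 h and 28.1% and 51.2% at 24 h, with overlapping groups.

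Lamp2 passed at 24 h as the sole member, with a change of -1.06 ± 0.18 in log2 odds (SE; limma adjusted p = 0.0458), where 28.6% of 290 X-linked genes and 0.852% of 9854 genes passed as lower. The call was lost when any 1 of 11 of the 12 libraries was left out and held only without 24 h replicate 2, with limma adjusted p from 0.0391 to 0.322. Without 2 h replicate 1 the limma adjusted p was 0.0559 (20.1% of X-linked genes lower), and with a replicate block it was 0.0549 (48.3% of X-linked genes lower). Rab9 changed by -0.71 ± 0.16 (limma adjusted p = 0.12, and 0.199 without 2 h replicate 1), Tbc1d25 by -0.39 ± 0.10 (0.194 and 0.178) and Atp6ap2 by -0.35 ± 0.14 (0.717 and 0.215). Atp6ap1 changed by -0.88 ± 0.45, and without 2 h replicate 1 it was below the minimum level.

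Total mRNA of the 5 did not pass at 24 h in these cells, with or without that library. Across the table, 0% of genes passed as lower and 0.00861% as higher, or 0% and 0.00862% without it. Of 11612 and 11600 genes tested, 55 and 211 had an unadjusted p under 0.05 in the lower direction. Both numbers are below what no change at all would give, so these fits could miss a change in total mRNA. Rab9 was at 17.01 and 14.0 RPKM at 0 h and 12.6 and 11.9 RPKM at 24 h. Its change on the log2(RPKM + 0.5) scale was -0.32 ± 0.52 with 2 h replicate 1 in the fit and -0.32 ± 0.12 without it. Atp6ap2 was at 20.8 and 23.6 RPKM and then at 17.5 and 23.1 RPKM, so the groups overlapped.

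**Figure D2:**
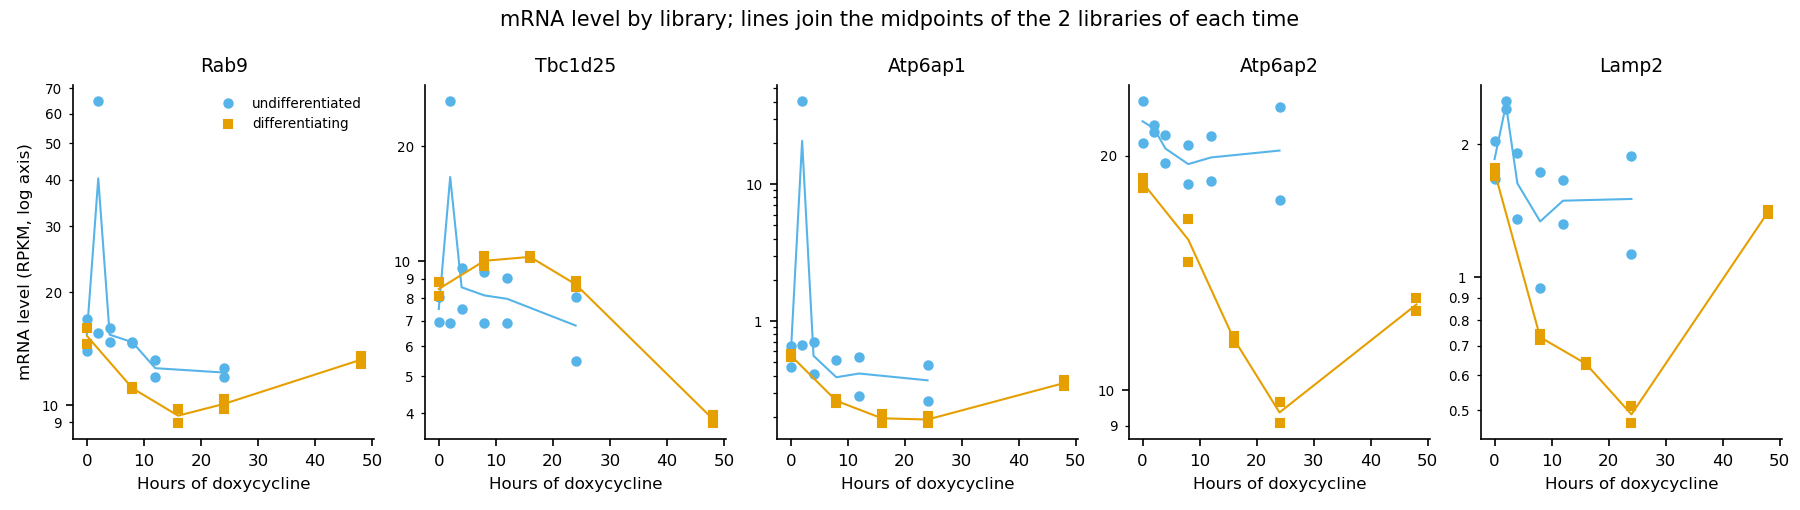
mRNA level (RPKM, log axis, 1 panel per gene with its own scale) by hours of doxycycline. Circles are undifferentiated and squares differentiating libraries, and lines join the midpoints of each time; the library at 2 h that stood apart is the high circle for Rab9, Tbc1d25 and Atp6ap1, and the squares of Atp6ap2 and Lamp2 reach their low at 24 h.

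In differentiating cells the shares of 4 of the genes passed as lower, and Atp6ap1 was too low in level to test at the minimum. The B6 share of Rab9 mRNA was 48.2% and 49.4% at 0 h, 44.8% and 47.4% at 8 h, 31.7% and 35.5% at 16 h, 26.2% and 26.6% at 24 h, and 30.7% and 37.8% at 48 h. All libraries from 16 h on lay below those of 8 h, and the lowest were at 24 h. The change was -0.90 ± 0.16 at 16 h, -1.38 ± 0.16 at 24 h and -0.86 ± 0.16 at 48 h (SE; limma adjusted p = 0.0141, 0.0015 and 0.00902).

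Tbc1d25, the autophagosomal GTPase-activating protein, fell by less. Its share was 41.3% and 42.2% at 0 h, 39.2% and 38.8% at 8 h, 35.01% and 36.4% at 16 h, 31.4% and 30.5% at 24 h, and 29.4% in both libraries at 48 h. Each time lay below the one before with no overlap. The change was -0.36 ± 0.06 at 16 h, -0.66 ± 0.06 at 24 h and -0.76 ± 0.06 at 48 h (SE; limma adjusted p = 0.0143, 0.000706 and 0.000285).

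Atp6ap2, the accessory protein of the proton pump, passed first at 24 h. Its share was 52.9% and 51.8% at 0 h, 51.5% and 49.7% at 8 h, 46.8% and 47.2% at 16 h, 47.5% and 42.8% at 24 h, and 37.6% and 36.5% at 48 h. The libraries of 48 h lay below all earlier ones. The change was -0.41 ± 0.09 at 24 h and -0.88 ± 0.09 at 48 h (SE; limma adjusted p = 0.0292 and 0.000919). At 16 h it was -0.30 ± 0.09 (limma adjusted p = 0.104).

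Lamp2, the lysosomal membrane protein, had a mean of 0.999 RPKM in this course, just under the minimum of 1, so it was tested with a minimum of 0.9, chosen after its value was seen. Its share was 49.1% and 50.9% at 0 h, 43.8% and 42.6% at 8 h, 28.6% and 27.8% at 16 h, 29.1% and 21.8% at 24 h, and 27.1% and 24.5% at 48 h. Most of the fall lay between 8 and 16 h. The change was -1.32 ± 0.17, -1.53 ± 0.17 and -1.49 ± 0.17 at 16, 24 and 48 h (SE; limma adjusted p = 0.00417, 0.00154 and 0.00135), where 79.5%, 90.1% and 92.8% of X-linked genes passed as lower. Atp6ap1, with a mean of 0.312 RPKM, had shares of 60.0% and 52.2% at 0 h and 12.5% and 29.6% at 24 h. It was at 32.6% and 44.9% at 8 h, 35.9% and 15.2% at 16 h, and 36.4% in both libraries at 48 h. Every later library lay below both of 0 h, on few reads. Tested with no minimum, its change at 24 h was -2.31 ± 0.65 (limma adjusted p = 0.0642), where 84.5% of X-linked genes passed as lower.

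With the minimum of 1, the number of these genes that passed as lower was 0 at 8 h, 2 at 16 h (Rab9 and Tbc1d25), 3 at 24 h and 3 at 48 h, of 3 tested. The shares of X-linked genes that passed were 33%, 80.4%, 90.9% and 93.7%, and of all genes 3.31%, 6.43%, 9.04% and 12.4%. The X-linked median was -1.39 at 24 h and -1.51 at 48 h, so Rab9 lay at the median at 24 h and ranked 248 of 285 from the largest fall at 48 h. Tbc1d25 ranked 246 and 261 at these times, and Atp6ap2 267 and 245. The calls at 16 h were lost when 0 h replicate 1, 0 h replicate 2 or 16 h replicate 1 was left out (limma adjusted p up to 0.0994). That of Atp6ap2 at 24 h was lost without either library of 0 h, either of 16 h, or 24 h replicate 2 (limma adjusted p up to 0.129).

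**Figure D3:**
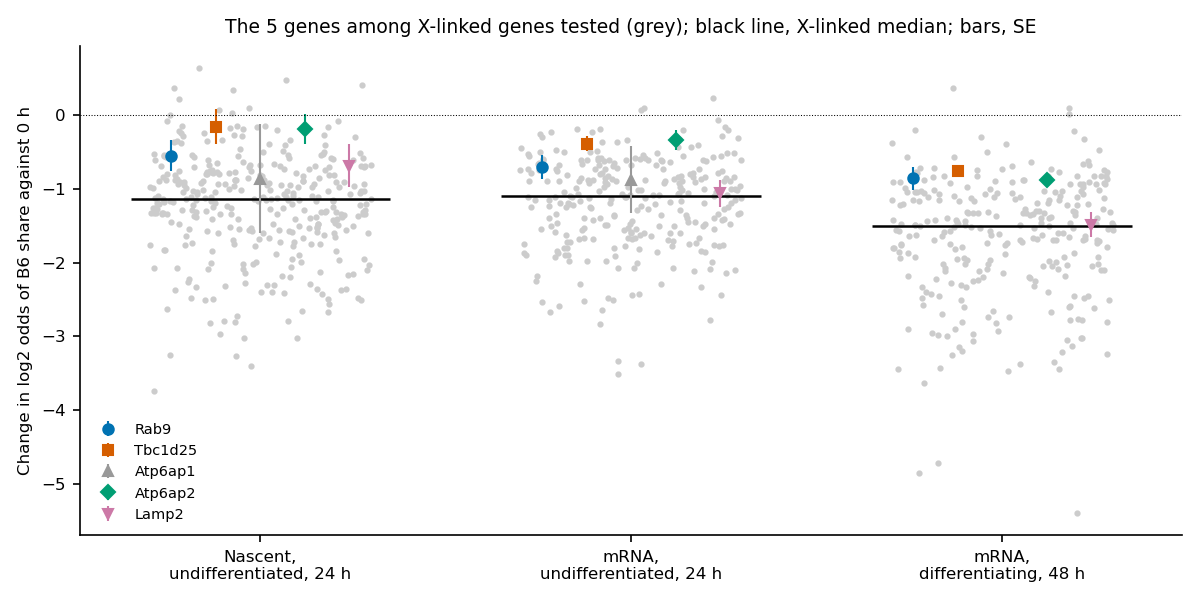
Change in log2 odds of the B6 share against 0 h (y axis) for the 5 genes (coloured, bars show SE) among all X-linked genes tested (grey, spread sideways for sight) in 3 comparisons (x axis). The black lines are the X-linked medians of -1.15, -1.10 and -1.51; all 5 genes lie above the line in the first 2 comparisons and Rab9, Tbc1d25 and Atp6ap2 at 48 h, where Lamp2 lies on it (minimum of 0.9 RPKM), and Atp6ap1 was not tested at 48 h.

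The difference between the courses was tested directly. At 24 h the change of the share in differentiating cells minus that in undifferentiated cells was -0.67 ± 0.23 for Rab9 (interaction, SE; limma adjusted p = 0.142), -0.27 ± 0.11 for Tbc1d25 and -0.07 ± 0.17 for Atp6ap2. None passed, and 1.87% of 268 X-linked genes did. For Lamp2 the difference was -0.47 ± 0.26 (limma adjusted p = 0.436; 1.81% of X-linked genes with the minimum of 0.9). Without 2 h replicate 1 none passed either, with 2.57% of X-linked genes lower. A difference of Rab9 between the courses was thus not shown at the threshold. The courses come from separate tables, and course and any difference in their processing cannot be told apart.

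Total mRNA took several courses during differentiation. Lamp2 went from 1.77 and 1.69 RPKM at 0 h to 0.743 and 0.721 RPKM at 8 h, 0.633 and 0.643 RPKM at 16 h, 0.469 and 0.511 RPKM at 24 h, and back to 1.42 and 1.39 RPKM at 48 h. Atp6ap2 went from 18.7 and 18.2 RPKM at 0 h to 14.6 and 16.6 RPKM at 8 h, 11.5 and 11.8 RPKM at 16 h, 9.65 and 9.08 RPKM at 24 h and 13.1 and 12.6 RPKM at 48 h. Both were lowest at 24 h, with no overlap between that time and 0 h or 48 h. On the log2(RPKM + 0.5) scale Lamp2 fell by 1.17 (plain log2 ratio of the means -1.82) and Atp6ap2 by 0.94 at 24 h (SE 0.05 and 0.06; limma adjusted p = 1.9e-09 and 1.76e-08). From 24 to 48 h they rose by 0.95 and 0.44 (limma adjusted p = 1.47e-08 and 1.55e-05), where 44% of genes passed as higher and 35% as lower.

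Rab9 went from 16.1 and 14.6 RPKM at 0 h to 11.03 and 11.2 RPKM at 8 h, 8.97 and 9.79 RPKM at 16 h, 9.79 and 10.4 RPKM at 24 h, and 12.9 and 13.5 RPKM at 48 h. Its fall of 0.68 at 16 h (SE 0.06; limma adjusted p = 5.15e-07) shrank to 0.20 at 48 h (limma adjusted p = 0.00492), and that call was lost without 0 h replicate 1 (0.0676). Tbc1d25 moved the other way: 8.81 and 8.13 RPKM at 0 h, 10.3 and 9.75 RPKM at 8 h, 10.2 and 10.3 RPKM at 16 h, 8.55 and 8.86 RPKM at 24 h, and 3.97 and 3.78 RPKM at 48 h. It rose by 0.23 at 8 h and 0.27 at 16 h and fell by 1.04 at 48 h (SE 0.05 each; limma adjusted p = 0.00184, 0.000476 and 1.34e-09). Between 24 and 48 h it fell by 1.07, rank 10 of 356 X-linked genes from the largest fall.

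Atp6ap1 was at 0.548 and 0.575 RPKM at 0 h, 0.251 and 0.272 RPKM at 8 h, 0.182 and 0.208 RPKM at 16 h, 0.180 and 0.202 RPKM at 24 h and 0.333 and 0.373 RPKM at 48 h. It was below the minimum of 0.5. With no minimum its level fell by 0.62 at 24 h and 0.32 at 48 h on the log2(RPKM + 0.5) scale (limma adjusted p = 8.25e-07 and 9.36e-05), where 61.7% and 58.1% of X-linked genes passed as lower. The plain log2 ratios of the Atp6ap1 means were -1.56 and -0.67, since the added 0.5 is as large as the values.

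Of the 4 genes tested, 3 passed as lower and 1 as higher at 8 and 16 h, 3 as lower at 24 h and 4 as lower at 48 h. Over all genes 32.4%, 34.7%, 38.8% and 39.9% passed as lower at these times and 23.4%, 36.2%, 35.8% and 44.4% as higher. Of X-linked genes 54.8%, 70.2%, 71.6% and 66.3% passed as lower, so these counts lie near the background. In bulk RNA, fewer cells with a given RNA and less of it per cell cannot be told apart. Naive pluripotency markers fell and formative markers rose over the same hours, and their part in these changes was not tested.

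Splitting RPKM by the share gave the level of each allele. The Cast chromosome carries no inducible Xist. The Cast allele of Rab9 was at 8.32 and 7.37 RPKM at 0 h and lowest at 8 h, at 6.08 and 5.88 RPKM. It was at 6.12 and 6.32 RPKM at 16 h, 7.22 and 7.62 RPKM at 24 h, and 8.95 and 8.41 RPKM at 48 h. The B6 allele of Rab9 went from 7.75 and 7.20 RPKM at 0 h to 2.56 and 2.76 RPKM at 24 h. At 24 h the B6 allele had fallen by 1.34 and the Cast allele stood at -0.07 ± 0.06 on the log2(level + 0.5) scale (SE; limma adjusted p = 2.35e-06 and 0.351). The Cast groups of 0 and 24 h overlapped. At 16 h the Cast allele had fallen by 0.31 (limma adjusted p = 0.00211).

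Atp6ap2, Lamp2 and Tbc1d25 changed more on the Cast allele at 24 h. Atp6ap2 went on the Cast allele from 8.83 and 8.77 RPKM at 0 h to 5.07 and 5.19 RPKM at 24 h and 8.19 and 8.03 RPKM at 48 h, and on the B6 allele from 9.92 and 9.44 RPKM to 4.58 and 3.88 RPKM and then 4.94 and 4.61 RPKM. At 24 h the Cast allele fell by 0.72 and the B6 allele by 1.11 (limma adjusted p = 5.42e-06 and 2.79e-07). At 48 h the Cast allele stood at -0.11 ± 0.07 (limma adjusted p = 0.162) and the B6 allele had fallen by 0.95 (limma adjusted p = 5.91e-07).

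Lamp2 was likewise at its lowest on both alleles at 24 h. Its Cast allele went from 0.9003 and 0.831 RPKM at 0 h to 0.418 and 0.413 RPKM already at 8 h. It was at 0.332 and 0.400 RPKM at 24 h and 1.04 and 1.05 RPKM at 48 h. The B6 allele of Lamp2 went from 0.868 and 0.862 RPKM at 0 h to 0.136 and 0.111 RPKM at 24 h and 0.385 and 0.342 RPKM at 48 h. With the minimum of 0.9, at 24 h the Cast allele fell by 0.66 and the B6 allele by 1.13 on the log2(level + 0.5) scale (limma adjusted p = 1.85e-05 and 1.46e-07), where 35.2% and 89.8% of X-linked genes passed as lower. At these low levels the added 0.5 shrinks a change, and the plain log2 ratios of the means were -1.24 for the Cast and -2.80 for the B6 allele. At 48 h the Cast allele was higher than at 0 h by 0.18 (limma adjusted p = 0.0458; 36.9% of X-linked genes higher), a call lost when any 1 library of 0, 8, 16 or 48 h was left out (limma adjusted p up to 0.193) and held only without 1 of those of 24 h, and the B6 allele lower by 0.66 (limma adjusted p = 6.89e-06; 87.7% lower).

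Tbc1d25 rose on the Cast allele before it fell on both. The Cast allele was at 5.17 and 4.70 RPKM at 0 h, 6.64 and 6.57 RPKM at 16 h, 5.87 and 6.15 RPKM at 24 h, and 2.80 and 2.67 RPKM at 48 h, and the B6 allele at 3.64 and 3.43 RPKM, 3.58 and 3.76 RPKM, 2.69 and 2.71 RPKM, and 1.17 and 1.11 RPKM. The Cast allele rose by 0.39 at 16 h and 0.26 at 24 h and fell by 0.75 at 48 h (limma adjusted p = 0.000353, 0.00383 and 9.82e-07). The B6 allele fell by 0.34 at 24 h and 1.30 at 48 h (limma adjusted p = 0.000807 and 9.79e-09).

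With the minimum of 1, of Rab9, Tbc1d25 and Atp6ap2 the Cast allele passed as lower for 2 and as higher for 1 at 16 h, for 1 and 1 at 24 h, and for 1 and 0 at 48 h. Of X-linked genes 31.6%, 35.1% and 39.3% passed as lower on the Cast allele at these times and 27%, 30.2% and 36.5% as higher. On the B6 allele all 3 passed as lower at 24 and 48 h, as did 89.5% and 88.4% of X-linked genes, with 3.51% higher at each time.

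**Figure D4:**
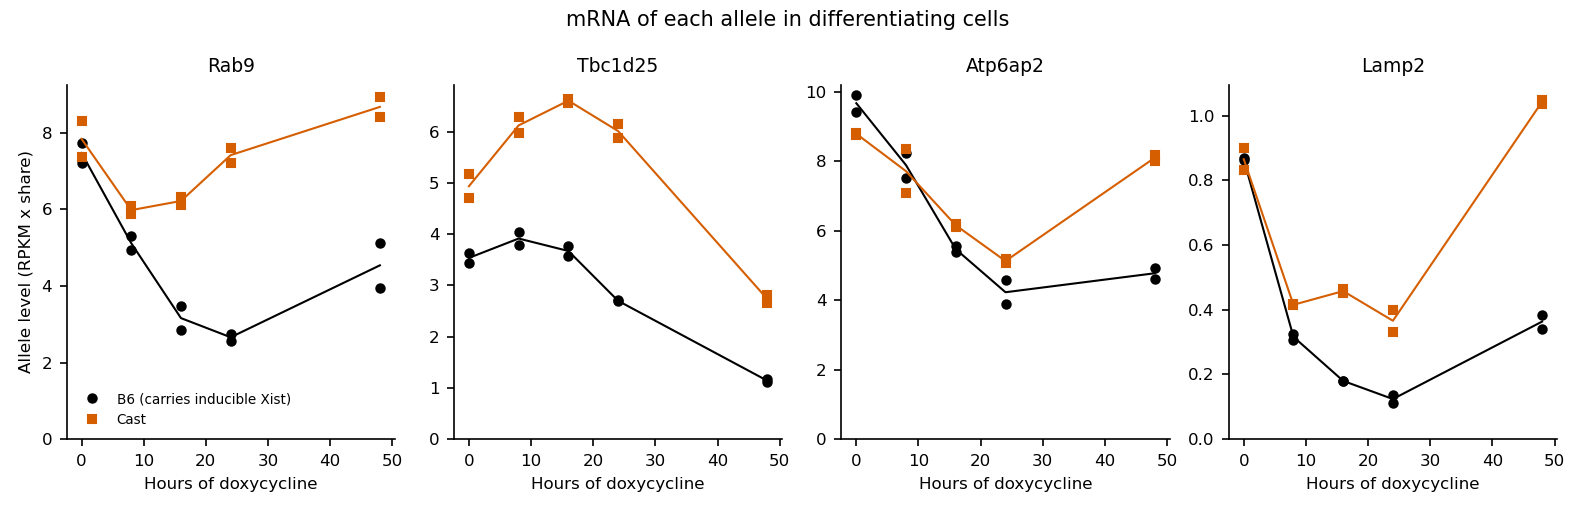
mRNA level of each allele (RPKM times allele share, y axis from 0, 1 panel per gene) in differentiating cells by hours of doxycycline (x axis). Points are libraries and lines join their means. The Cast allele of Rab9 was lowest at 8 h (6.08 and 5.88 RPKM) and ended at 8.95 and 8.41 RPKM, near its start. That of Tbc1d25 ended at 2.80 and 2.67 RPKM. Those of Atp6ap2 and Lamp2 were lowest at 24 h, and that of Lamp2 was already at 0.418 and 0.413 RPKM at 8 h.

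The promoters of Tbc1d25, Atp6ap2 and Lamp2 are shown because the Cast alleles of these 3 genes changed most at 24 h among the 4 genes tested. Each is the RefSeq sequence (GRCm38.p6) from 250 bases before to 50 after the annotated start, 5′ to 3′ on the strand of the gene. The windows lie at chrX:8175875-8176174 (minus strand), chrX:12587509-12587808 (plus strand) and chrX:38456411-38456710 (minus strand). The RefSeq start of Tbc1d25 lies 257 bases downstream of its start in the deposited table, so that window, CCGGAAG included, lies within the deposited gene and not before it. The RefSeq starts of Atp6ap2 and Lamp2 lie 42 and 6 bases upstream of the deposited ones. Capitals mark CCAAT, the box bound by NF-Y, on either strand (written ATTGG on the other one), and CCGGAAG, a core bound by ETS family factors.
Tbc1d25: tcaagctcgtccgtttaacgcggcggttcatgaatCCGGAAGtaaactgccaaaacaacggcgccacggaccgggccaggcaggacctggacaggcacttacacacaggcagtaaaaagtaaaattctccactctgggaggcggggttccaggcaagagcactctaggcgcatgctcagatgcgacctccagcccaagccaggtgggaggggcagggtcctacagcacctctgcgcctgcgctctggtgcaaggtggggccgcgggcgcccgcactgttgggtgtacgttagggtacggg
Atp6ap2: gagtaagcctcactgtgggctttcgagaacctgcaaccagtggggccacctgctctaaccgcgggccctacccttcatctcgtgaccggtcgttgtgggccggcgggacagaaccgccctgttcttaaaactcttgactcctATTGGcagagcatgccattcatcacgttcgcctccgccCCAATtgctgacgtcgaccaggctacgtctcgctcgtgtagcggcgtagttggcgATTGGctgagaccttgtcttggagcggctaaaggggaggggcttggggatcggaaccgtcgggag
Lamp2: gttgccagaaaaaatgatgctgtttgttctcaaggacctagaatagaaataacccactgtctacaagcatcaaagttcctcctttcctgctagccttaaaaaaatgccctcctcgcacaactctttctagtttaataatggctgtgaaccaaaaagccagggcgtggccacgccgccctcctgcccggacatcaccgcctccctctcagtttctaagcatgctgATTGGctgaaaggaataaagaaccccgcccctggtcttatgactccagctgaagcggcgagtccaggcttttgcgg

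All 5 genes had a promoter entry. CCAAT was found 3 times in Atp6ap2, 1 time in Lamp2 and 1 time in Atp6ap1. Of all 32851 promoters 37.4% hold it, and of 1223 X-linked promoters 45.0%. CCGGAAG was found in Tbc1d25 alone of the 5, against 8.86% of promoters and 6.79% of X-linked ones. The E-box CACGTG, to which TFE3 and TFEB bind, its longer form TCACGTGA, the YY1 motif GCCATNTTG and the TATA motif TATAAA were in none of the 5 windows. They occur in 7.15%, 0.974%, 2.51% and 13.6% of promoters. Both strands were searched, and CACGTG lies within TCACGTGA. GC content was 61.7% in Tbc1d25, 60.3% in Atp6ap2, 54.3% in Atp6ap1, 53.3% in Rab9 and 50.0% in Lamp2. The median was 52.7% over all promoters and 51.0% over X-linked ones. The number of CG steps was 21, 24, 17, 9 and 10 in that order, against a median of 7 in both sets. A motif match describes the letters and is no evidence of binding.

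The X-linked genes with the most similar course of the B6 share were found by the mean absolute difference over the 11 mRNA time points, among 265 genes. For Atp6ap2 they were Idh3g (0.903 percentage points), Araf (1.98) and Ndufb11 (2.48), where the median gene was 10.1 points away. For Tbc1d25 they were Taf1 (1.77), Dkc1 (1.96) and Vma21 (2.37), for Rab9 Fmr1 (1.89), Kdm5c (2.05) and Yipf6 (2.14), and for Lamp2 Brwd3 (1.70), Xiap (1.86) and Emd (1.99). For Atp6ap1 the nearest, Ercc6l, was 2.64 points away. Vma21, an assembly factor of the V-ATPase, and Yipf6, a Golgi membrane protein, belong to the X-linked traffic genes counted next. Among the 5 genes themselves Rab9 and Lamp2 were closest (2.99 points) and Tbc1d25 and Atp6ap2 farthest apart (10.6 points). Without 2 h replicate 1, 12 of the 15 nearest genes stayed among the nearest 3, and Fmr1, Xiap and Emd were replaced by Huwe1 (for Rab9), Ofd1 and Huwe1 (for Lamp2). All these values share libraries.

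Other X-linked genes of traffic and the lysosome gave a setting. Of 27 listed, 20 could be tested in nascent RNA and 5 passed as lower in the B6 share at 24 h, with a median of -1.08, against 30.1% and -1.15 for all X-linked genes tested. Among the 5 that passed, the 4 with the largest falls were Mtm1 (-1.56), a phosphoinositide phosphatase, Chm (-1.33), a Rab escort protein, Ocrl (-1.26), also a phosphoinositide phosphatase, and Tfe3 (-1.06), a transcription factor of lysosomal genes. In differentiating mRNA all 14 tested passed as lower at 48 h, with a median of -1.63, as did 93.7% of X-linked genes (median -1.51). The largest falls were those of Rragb (-3.03), a GTPase that recruits mTORC1 to lysosomes, Tbc1d8b (-2.33), Ocrl (-2.10) and Snx12 (-1.76). In undifferentiated mRNA at 24 h 6 of 16 passed, with a median of -1.14, against 28.6% and -1.10 for X-linked genes, and the largest falls among those that passed were those of Rragb (-3.37), Mtm1 (-1.46), Wdr45 (-1.25) and Ap1s2 (-1.20). Without 2 h replicate 1, 5 of 17 passed, Rragb, Mtm1 and Wdr45 among them, with a median of -1.10, against 20.1% of X-linked genes.

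Autosomal partners were counted in total mRNA of differentiating cells. Of 16 V-ATPase subunits 7 were lower and 5 higher at 24 h, and 6 lower and 10 higher at 48 h, with medians of -0.07 and 0.30 on the log2(RPKM + 0.5) scale. Tcirg1 (1.61) and Atp6v0a1 (1.00) rose most at 48 h, and Atp6v0e2 (-0.97) and Atp6v0a2 (-0.63) fell most. Of 9 lysosomal membrane proteins tested, 4 were lower and 2 higher at 24 h, and 2 lower and 6 higher at 48 h (median 0.58), with Laptm4b at 2.63, Npc1 at 0.86, Scarb2 at 0.78 and Tmem192 at -0.75. Of 28 lysosomal enzymes and lumen proteins, 17 were lower and 7 higher at 24 h, and 6 lower and 15 higher at 48 h (median 0.39), led by Ctsc (3.02), Neu1 (1.81), Smpd1 (1.71) and Ctsz (1.35). Of all genes 38.8% were lower and 35.8% higher at 24 h, and 39.9% lower and 44.4% higher at 48 h, with medians of -0.02 and 0.03.

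Regulators and routes around the 5 genes moved in both directions at 48 h, where 39.9% of all genes were lower and 44.4% higher. Of the 15 TFE3 and lysosomal mTORC1 regulators 7 were lower and 6 higher at 48 h, with Tfeb at -3.08 and Mitf at -3.03, both relatives of TFE3, and Lamtor2 at 0.82 and Fnip2 at 0.67. This list holds the X-linked Tfe3 and Rragb, which also belong to the X-linked trafficking genes. Of 11 genes of the Rab9 and retromer route 5 were lower and 5 higher, with Plin3, a Rab9 effector, at 1.53, Gcc2 at -0.95, Snx1 at -0.93 and Snx2 at 0.38. Of 12 autophagy genes around Tbc1d25 5 were lower and 6 higher, with Gabarapl1 at 1.35, Gabarapl2 at -1.34, Ulk1 at -0.94 and Sqstm1 at 0.74. In X-linked trafficking genes 15 of 18 were lower and 3 higher at 48 h, with a median of -0.68, against 66.3% lower and 21.1% higher among X-linked genes. There Wdr45 was at -1.65, Vma21 at -1.59, Mtm1 at -1.36 and Gpr143 at 1.65.

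**Figure D5:**
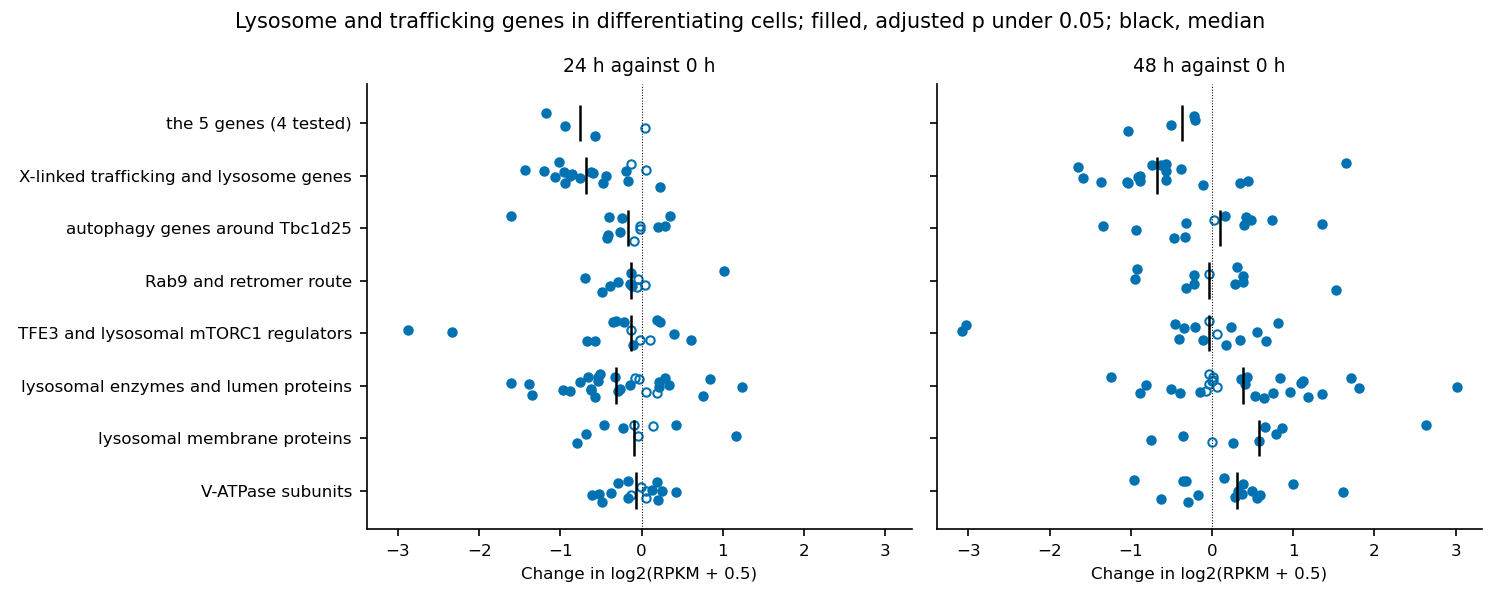
Change in log2(RPKM + 0.5) (x axis) of the genes of each list (y axis) in differentiating cells at 24 and 48 h against 0 h. Each point is a gene, filled where the limma adjusted p was under 0.05, and black bars are list medians, which for V-ATPase subunits were -0.07 and 0.30 and for lysosomal membrane proteins -0.10 and 0.58.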

How the data were processed

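Nascent RNA (PRO-seq, 10 libraries) and mRNA (22 libraries) were analysed from the deposited tables. The submitters' processing notes name mm10 and the tools HTSeq 0.6.1, TopHat2 2.1.0, SAMtools, Bowtie 1.0.0 and cutadapt 1.8.2. How reads were split by allele is not stated there. The PRO-seq table deposited by the authors holds read counts of each allele, the B6 fraction and RPKM. The mRNA tables deposited by the authors hold the B6 fraction and RPKM without counts, so mRNA shares carry no interval.

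PRO-seq counts were tested with edgeR 4.0.16 (robust quasi-likelihood; library, allele and allele by group terms; a mean of at least 20 allele reads; TMM and filterByExpr for totals). The mRNA values were tested with limma 3.58.1 (trend, robust) on the log2 odds of the share (pseudocount 0.01, mean RPKM of at least 1, a share in every library), on log2(RPKM + 0.5) (mean of at least 0.5), on RPKM times allele share plus 0.5, and for the interaction of time and course. All libraries of a course shared 1 fit. P-values were two-sided and adjusted over all genes with a threshold of 0.05. The scripts were tested on simulated data. Alternatives were DESeq2 1.42.0, other pseudocounts and filters, left-out libraries and replicate blocks.

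The mRNA replicates were numbered in the order of the library codes in their titles, and pairing was checked on deviations from the group means. In undifferentiated mRNA the same-numbered libraries deviated together in all 15 pairs of times (r 0.103 to 0.253 for the share, 0.335 to 0.918 for RPKM), which pairs them. The main fits of that course and of the difference between courses leave this pairing out, so their p-values ignore it. With a replicate block, run as an alternative, 48.3% of X-linked genes passed as lower in the share at 24 h, against 28.6% without it. In the differentiating course they did not (r -0.0359 to 0.0558 for the share).

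The 5 genes and the gene lists were chosen with earlier results of these data known. From each list, up to 4 genes past the threshold were named by the size of their change at the last time. The most similar genes and the neighbours were named by their distance.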

Additional observations from a re-analysis of the deposited data

How the results depend on the processing

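Under the alternatives, 440 counts of genes passing stayed within 1.5 times the reported count, 13 were above and 18 below. Counts reported as 0, such as those of nascent shares and totals, are among the 440 wherever they stayed 0. In undifferentiated mRNA at 24 h the count of lower shares was 1 (Lamp2). It became 0 with no minimum RPKM, with the 2 time points only and with the replicate block, which changed no other call. With a minimum mean RPKM of 5 it was 0 because Lamp2, at a mean of 1.71 RPKM, was not tested. Leaving out 1 library gave 0 to 1. In differentiating cells leaving out 1 library gave 0 to 4 lower shares at 16 h (2 reported). The 4 include Lamp2, whose mean, 0.999 RPKM over all libraries, passes the minimum of 1 without some of them. In such fits the genes tested changed as well. On the Cast allele leaving out 1 library gave 1 to 2 lower at 24 h (1 reported) and 0 to 1 higher at 48 h (0 reported). The minimum of 0.9 RPKM, chosen after the data were seen, gave 2 and 1 there by adding Lamp2. With the 2 time points only, Tbc1d25 at 16 h, Atp6ap2 and Lamp2 at 24 h and Rab9 at 48 h lost their share calls. The causes were not tested.

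Of the values of single genes, 26 changed sign under an alternative, none of them past the threshold in either fit, and with 1 exception this was when 1 library was left out. At 24 h the nascent share of Atp6ap1 ranged from -1.43 to 0.025, and nascent totals from -0.21 to 0.18 for Tbc1d25 and from -0.37 to 0.23 for Atp6ap2. Undifferentiated totals ranged from -0.33 to 0.061 for Atp6ap2, from -0.52 to 0.021 for Lamp2 and from -0.41 to 0.11 for Tbc1d25. Undifferentiated Cast alleles ranged from -0.25 to 0.23 for Tbc1d25 (0.0069 when median-centred), from -0.16 to 0.087 for Rab9, from -0.13 to 0.20 for Atp6ap2 and from -0.11 to 0.29 for Lamp2. In differentiating cells at 24 h the Cast allele of Rab9 ranged from -0.155 to 0.0078 and the Tbc1d25 total from -0.017 to 0.094. The difference between courses ranged from -0.20 to 0.067 at 24 h and from -0.067 to 0.038 at 8 h for Atp6ap2, and from -0.21 to 0.17 at 8 h for Lamp2 (0.061, 0.032 and 0.014 in the other fits that changed its sign). Depth limits Atp6ap1, with at most 40 allele reads in a PRO-seq library.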
